A study of Mus musculus with 12 samples.

Results

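Dense clusters of open chromatin were taken from a table of 48443 ATAC-seq peaks of the mouse genome (build mm10). A peak belonged to a dense cluster when it was narrower than 1500 bp and at least 8 peaks of the table, itself included, started within 25 kb of its own start on the same chromosome. This gave 2501 member peaks of the 47168 peaks below that width. Members whose starts lay within 25 kb of each other were joined, which gave 515 clusters. Each cluster carries the name of the protein-coding gene that is nearest to more of its members than any other (ties by order), which can be a minority, such as 2 of 13 for H4c8, and being nearest does not make that gene the region's target. The choice used positions only and no counts. The peaks were themselves called from reads of this series, so their positions are not independent of its signal and depth. The part of this in the results below was not tested.

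The libraries came from wild-type C57BL/6 mice. Splenic CD4+ T cells, sorted as naive (CD44- CD62L+ CD25-), were stimulated on plates coated with anti-CD3 and anti-CD28 (1 µg/ml of each). With IL-6 (25 ng/ml) and TGF-beta1 (2 ng/ml) they were driven towards non-pathogenic Th17 cells, here Th17n. With TGF-beta1 alone (2 ng/ml) they were driven towards induced regulatory T cells, here iTreg. Both kinds of culture were harvested after 68 hours with vehicle or with 100 µM DFMO (difluoromethylornithine), an inhibitor of ornithine decarboxylase, the first enzyme of polyamine synthesis. Each of the 4 combinations of culture and treatment has 1 library from each of 3 animals. All are cultures of sorted cells made outside the animal, and each library is a bulk measurement, in which fewer cells of a type and less open chromatin per cell cannot be told apart. The study asked how DFMO alters the 2 kinds of culture, and the clusters let that question be put to the densest stretches of open chromatin.

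Regions in which many regulatory elements crowd together have been called super-enhancers or stretch enhancers. They are usually defined from histone acetylation, Mediator or transcription factor binding, none of which was measured here, so the clusters resemble such regions by the density of their peaks alone. In T cells, regions of this kind are known at genes of cell identity and of signalling, among them cytokines, cytokine receptors, co-stimulatory receptors and the transcription factors of each lineage.

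Sequence is shown for single members chosen after their values were seen. The first pair are promoters of histone genes (RefSeq, GRCm38.p6, the assembly of mm10) that lie inside members of a cluster on chromosome 13 in which 11 of 13 members rose with DFMO in Th17n. They are the 250 bases upstream of the annotated start of H3c8 (plus strand, chr13:23535168-23535417) and of H2bc7 (minus strand, chr13:23574208-23574457). The next 3 lie in members that fell in Th17n with DFMO, upstream of Tnfrsf9 (plus strand, chr4:150927749-150927998), Ier3 (plus strand, chr17:35821463-35821712) and Il21r (plus strand, chr7:125603179-125603428). Capitals mark 4 motifs on either strand: the CCAAT box, the TATA box (TATAAA), the AP-1 motif (TGANTCA) and the NF-kB motif, which is GGG, then any 2 bases, then TTTCC.
H3c8: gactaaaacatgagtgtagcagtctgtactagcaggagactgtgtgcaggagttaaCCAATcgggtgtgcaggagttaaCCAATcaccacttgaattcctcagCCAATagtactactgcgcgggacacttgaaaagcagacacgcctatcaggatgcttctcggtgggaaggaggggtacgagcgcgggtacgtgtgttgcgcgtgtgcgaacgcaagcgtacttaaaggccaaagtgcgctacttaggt
H2bc7: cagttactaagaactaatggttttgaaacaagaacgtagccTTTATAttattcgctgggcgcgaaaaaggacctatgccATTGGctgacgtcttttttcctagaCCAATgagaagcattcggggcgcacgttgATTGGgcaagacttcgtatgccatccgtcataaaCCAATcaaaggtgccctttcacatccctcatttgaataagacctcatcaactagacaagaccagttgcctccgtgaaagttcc
Tnfrsf9: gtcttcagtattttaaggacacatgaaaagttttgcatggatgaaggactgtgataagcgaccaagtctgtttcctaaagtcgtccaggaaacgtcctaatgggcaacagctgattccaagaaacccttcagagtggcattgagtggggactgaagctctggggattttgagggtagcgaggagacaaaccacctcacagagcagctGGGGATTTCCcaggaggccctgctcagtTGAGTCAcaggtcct
Ier3: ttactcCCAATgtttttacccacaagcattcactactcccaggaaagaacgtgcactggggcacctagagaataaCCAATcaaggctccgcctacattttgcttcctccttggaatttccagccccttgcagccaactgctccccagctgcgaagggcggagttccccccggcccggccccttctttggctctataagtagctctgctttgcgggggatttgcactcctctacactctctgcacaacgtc
Il21r: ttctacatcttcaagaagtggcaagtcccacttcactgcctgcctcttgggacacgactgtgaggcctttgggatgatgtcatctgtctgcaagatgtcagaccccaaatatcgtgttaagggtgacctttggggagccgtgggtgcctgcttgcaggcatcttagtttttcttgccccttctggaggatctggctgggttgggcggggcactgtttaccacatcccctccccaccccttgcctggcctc

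CCAAT was found in the windows of 8 of 8 histone promoters inside members and in 60 of all 188 promoter windows inside members (31.9%), against 33.8% of 32817 annotated windows of the same length. TATAAA was found in 4 of the 8 histone windows and in 12.4% of all windows. The ETS motif CCGGAAGT was found in 14 of the 188 windows inside members (7.45%) and in 2.88% of all windows. The NF-kB motif was found in 7 (3.72%, against 1.41%), and the AP-1 motif in 8 (4.26%, against 6.75%). The RUNX motif TGTGGTT was found in 8 (4.26%, against 4.39%). The 188 windows belong to 172 genes and lie in 159 member peaks, whereas the 32817 are all annotated windows, inside a peak or not. Windows inside other peaks were not counted apart, so these differences cannot be tied to dense clusters rather than to open promoters. These are matches of letters and not binding sites.

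Another sequence belongs to a member of a cluster at Rtn4rl1 on chromosome 11 that contains the genes of the microRNAs miR-212 and miR-132. The member (chr11:75172573-75173812) fell in iTreg with DFMO, from 66.4 ± 6.42 to 37.5 ± 4.92 CPM (counts scaled to the size of the library, mean ± SD, n = 3), a log2 change of -0.83 ± 0.16 (SE; edgeR adjusted p = 7.41e-04). Its change in Th17n was 0.06 ± 0.16 (adjusted p = 0.877). The mature microRNAs (RefSeq, plus strand, chr11:75173443-75173464 and chr11:75173723-75173744) share their seed, the bases from position 2 to 8 in capitals.
mmu-miR-212-3p: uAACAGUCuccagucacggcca
mmu-miR-132-3p: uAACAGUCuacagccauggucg

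The clusters were of very different size. Of the 515, 116 held 1 member and 122 held at least 8, and these 122 held 1291 of the 2501 members over a median span of 42.2 kb (19.6 to 118 kb). The one with most members, 24 over 117 kb, lay at Exoc2 and Irf4, the gene of a transcription factor needed for Th17 differentiation. The next were at class II MHC and antigen processing genes (named for H2-DMb1, 20 members), the Gimap genes of small GTPases in lymphocytes (19 members), and Tcf7, Cytip, Ets1 and Nfkbil1 (18 each). Tcf7 and Ets1 encode T cell transcription factors, Cytip encodes a regulator of leukocyte adhesion, and the Nfkbil1 cluster also covers Tnf, Lta and Ltb, which encode cytokines of the tumour necrosis factor family. Lef1, the gene of a factor related to that of Tcf7, followed with 17 members.

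Members were as wide as other peaks of the same class but more open. Their median width was 463 bp, against 469 bp for the 44667 other peaks narrower than 1500 bp, and their median level over the 12 libraries was 13.25 CPM, against 9.34. Per kb of peak the medians were 30.0 and 20.9 CPM. Members lay less often within 1 kb of an end of a gene model (409 members, 16.35%, against 24.25%) and more often inside a gene (51.5% against 42.9%). Within clusters of at least 8 members, the strongest member held a median of 29.4% of the summed level (12.6% to 61.3%), so that most of the signal of a typical cluster came from its other members.

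The libraries held between 1020937 and 6496550 counts, a 6.36-fold range. In animals 1, 2 and 3 the totals were 1020937, 6496550 and 3405449 in Th17n vehicle and 3077794, 2311124 and 1535786 in Th17n DFMO. They were 1955327, 4652271 and 4946527 in iTreg vehicle and 1703720, 2107652 and 3412225 in iTreg DFMO. Test results rest on the spread between 3 animals a group, and the reads carry no molecular identifiers, so counting error alone is smaller than the true error. All 11 CD4 T cell marker genes listed had peaks, with summed levels of 1580 to 1704 CPM in Th17n vehicle, 1537 to 1647 in Th17n DFMO, 1651 to 1784 in iTreg vehicle and 1478 to 1620 in iTreg DFMO. For B cells, the marker genes Cd79a, Cd79b and Ms4a1 had no peak, and the summed level of the list was 237.5 to 266 CPM in Th17n vehicle, 259 to 271 in Th17n DFMO, 146.5 to 212 in iTreg vehicle and 156.5 to 183 in iTreg DFMO. For cytotoxic T and NK cells, 5 of 9 had none (Cd8a, Gzma, Klrd1, Ncr1 and Nkg7), with 104 to 122, 108 to 117, 129.5 to 134 and 132 to 169 CPM in the same order. For myeloid cells only Mpo of 9 had none, with 473 to 539 CPM over the 12 libraries. The B cell list was higher in Th17n and the cytotoxic list higher in iTreg, without overlap between the cultures. The CD4 T cell list in iTreg vehicle overlapped neither DFMO group and lay above both. Of its 65 peaks 27 are themselves members, so its level is not independent of the results below. The B cell, myeloid and cytotoxic lists hold 0 members. The part of other cells in the results below was not tested.

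The share of all counts that fell in members was lower with DFMO in both kinds of culture. In Th17n it was 5.49%, 5.79% and 5.67% in the vehicle libraries of animals 1, 2 and 3, and 5.35%, 5.30% and 5.28% in the DFMO libraries. In iTreg it was 5.41%, 5.63% and 5.72% with vehicle, and 4.91%, 5.21% and 4.91% with DFMO. The groups did not overlap in either culture, and the means were 5.65% ± 0.15 and 5.31% ± 0.0347 (SD, n = 3) in Th17n and 5.59% ± 0.163 and 5.01% ± 0.171 in iTreg. As a sum over chosen members this share was given no test.

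**Figure D1:**
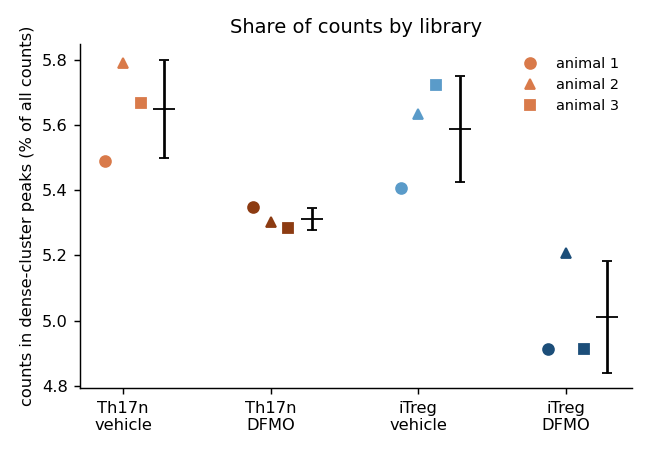
Share of all counts in the 2501 member peaks (vertical axis, % of the library's counts) in each of the 12 libraries, with 1 point per animal and the mean and SD of each group. The 3 DFMO libraries lie below the 3 vehicle libraries in both cultures, at 5.28% to 5.35% in Th17n and at 4.91% to 5.21% in iTreg.

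DFMO lowered more members than it raised, in both cultures. After a filter on low counts 2384 members could be tested and 117 could not. In Th17n 202 members (8.47%) fell and 96 (4.03%) rose, where 4.29% and 4.5% of all 43726 tested peaks fell and rose (edgeR, adjusted p under 0.05). In iTreg 259 members (10.9%) fell and 65 (2.73%) rose, where 4.73% and 3.83% of all tested peaks did. The median log2 change of the tested members was -0.11 in Th17n and -0.21 in iTreg, where that of all tested peaks was 0.01 and -0.01. Over 20 ways of fitting the counts the share of members that fell was 1.65 to 2.15 times that of all peaks in Th17n, and 2.17 to 2.65 times in iTreg. The number called depended on single libraries more than this ratio did. Without DFMO library 1, vehicle library 2 or vehicle library 3, 4.90%, 4.61% and 4.38% of members fell in Th17n, against 2.33%, 2.18% and 2.09% of all peaks. The share of members that rose in Th17n was 1.51%, 2.46% and 2.42% without DFMO library 1, 2 or 3, against 1.71%, 2.41% and 2.36% of all peaks. It was 2.01%, 2.18% and 1.60% without vehicle library 1, 2 or 3, against 2.55%, 1.99% and 1.68%, so that the order of members and all peaks changed in 3 of these fits. In iTreg 6.92% and 4.78% fell without DFMO library 1 or 3 and 5.96% and 4.70% without vehicle library 2 or 3, against 2.77%, 1.90%, 2.49% and 1.78% of all peaks. In the same order 1.72%, 1.13%, 1.01% and 1.05% of members rose in iTreg, against 2.66%, 1.45%, 1.78% and 1.49% of all peaks.

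The share of peaks that fell went up with the local density of peaks, also below the threshold of 8. Among peaks narrower than 1500 bp with no other start within 25 kb, 2.55% fell in Th17n and 1.91% in iTreg. With 2 to 3 starts in the window the shares were 3.10% and 3.41%, with 4 to 5 they were 4.99% and 5.03%, and with 6 to 7 they were 6.45% and 7.54%. Within the clusters they were 7.48% and 10.4% with 8 to 9 starts, and 11.9% and 12.45% with 10 to 17. The share that rose went the other way up to the same point, from 6.08% and 5.82% for peaks alone in their window to 3.68% and 2.49% with 8 to 9 starts, and was 5.20% and 3.53% with 10 to 17. In iTreg it was 1.95%, 0%, 2.08% and 0% with 10, 11, 12 and 13 starts. With 14, 15, 16 and 17 starts 4 of 12, 6 of 15, 0 of 1 and 2 of 2 peaks rose there. A cluster on an unplaced scaffold, described below, held 12 of the 65 members that rose in iTreg. Peaks just inside the threshold (8 starts) and just outside it (7 starts) were close, with 7.40% and 6.60% lower in Th17n and 9.79% and 8.54% in iTreg.

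**Figure D2:**
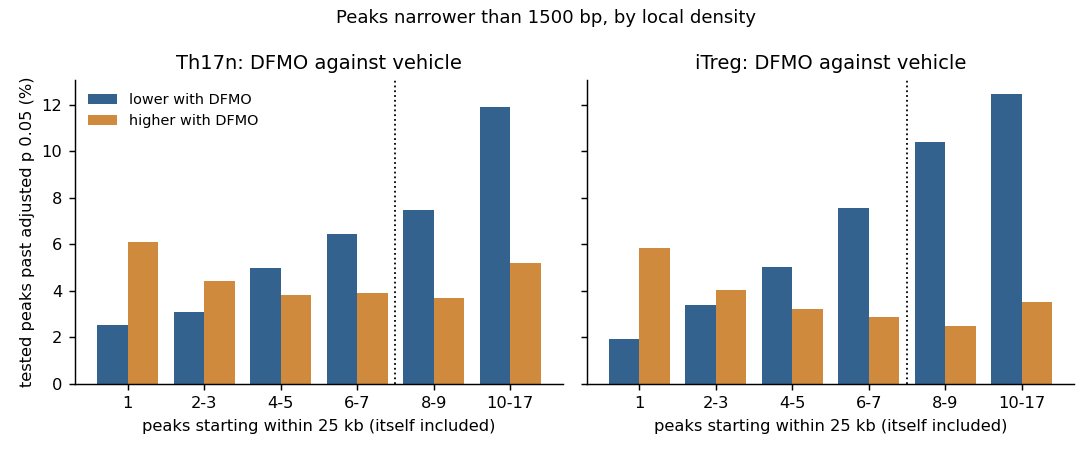
Share of tested peaks narrower than 1500 bp that fell (blue) or rose (orange) with DFMO (vertical axis, %), by the number of peaks that start within 25 kb (horizontal axis), in Th17n (left) and iTreg (right). The dotted line marks the threshold of 8, and the share that fell goes from 2.55% to 11.9% in Th17n and from 1.91% to 12.45% in iTreg.

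Members were stronger than other narrow peaks and lay less often within 1 kb of a gene end. Their higher share of peaks that fell was also seen within classes of level and position. Away from gene ends 184 of 1986 members (9.27%) fell in Th17n, against 4.80% of the other narrow peaks, and 11.2% against 4.63% fell in iTreg. Among peaks of 10 to 20 CPM 10.1% of members and 4.87% of the others fell in Th17n, and 11.4% and 5.41% in iTreg. At 40 CPM and over 6.39% and 2.60% fell in Th17n and 16.7% and 5.38% in iTreg. At this level more members rose than fell in Th17n, 45 (12.5%) against 23, where 7.28% of the others rose. Their median log2 change there was 0.08. In iTreg 5.00% of these members and 6.93% of the others rose. Of 398 tested members at gene ends 39 rose (9.80%) and 18 fell (4.52%) in Th17n, where 3.82% and 1.96% of the other narrow peaks at gene ends did. In iTreg 9 rose (2.26%) and 37 fell (9.30%), where 3.66% and 3.23% of the others did.

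Summed over its members, a cluster gave 1 value per library. Of 507 clusters tested, 71 (14.0%) fell and 15 (2.96%) rose with DFMO in Th17n, where 4.89% and 3.56% of the 41849 entries tested in the table with clusters summed fell and rose. In iTreg 78 (15.4%) fell and 8 (1.58%) rose, where 4.46% and 3.62% of the entries did. Sums have higher counts than single peaks, and the part of that in these shares was not tested. Of the 122 clusters with at least 8 members 29 fell (23.8%) and 6 rose (4.92%) in Th17n, and 28 fell (22.95%) and 3 rose (2.46%) in iTreg. Without DFMO library 1, vehicle library 2 or vehicle library 3, 6.90%, 6.31% and 5.93% of clusters fell in Th17n, and without DFMO library 2 or 3, 9.002% and 7.83%. The share that rose in Th17n was 1.38% and 1.96% without DFMO library 1 or 2, 1.37% without vehicle library 1 and 4.50% without iTreg vehicle library 1. In iTreg 9.41% and 6.93% of clusters fell without DFMO library 1 or 3 and 8.09% and 7.50% without vehicle library 2 or 3, and 0.792% and 0.986% rose without DFMO library 3 or vehicle library 3. The cluster shares of these fits were not set beside those of all entries. A change in the clusters and a change in calls over the whole table can therefore not be told apart here. The shares of all single peaks that fell in several of these fits, given above with the members, were lower too.

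**Figure D3:**
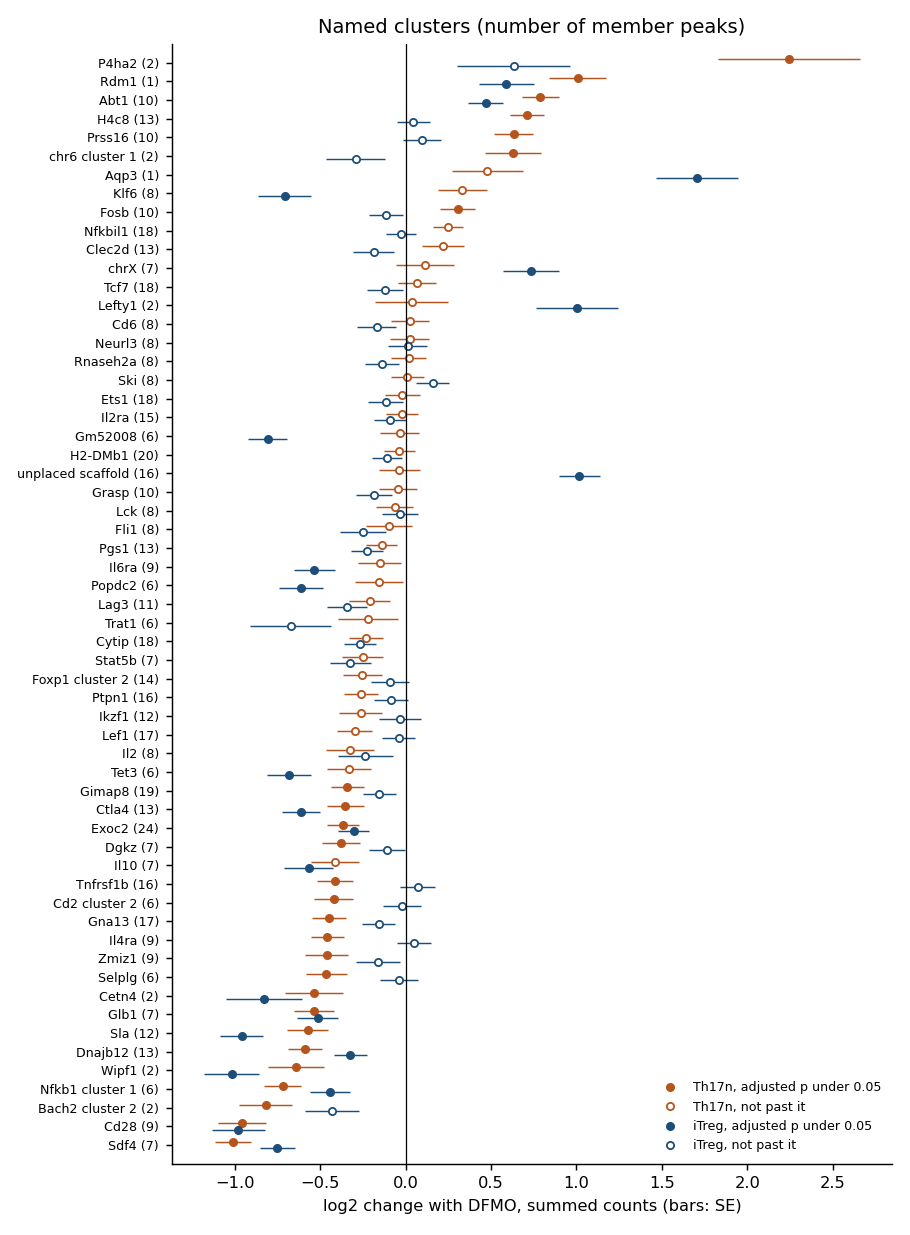
Log2 change of the summed counts with DFMO (horizontal axis, bars are SE) for named clusters with at least 6 members or a change past adjusted p 0.05, in Th17n (orange) and iTreg (blue), with the number of members in brackets. Filled points passed the threshold, and most of these lie below 0, such as Wipf1 (-1.02 in iTreg) and Sdf4 (-1.01 in Th17n).

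Co-stimulatory receptors of the immunoglobulin and tumour necrosis factor receptor families were among the clusters that fell in both cultures. Cd28 encodes the receptor that gives T cells their main co-stimulatory signal, and its cluster of 9 members spans chr1:60753904-60779292, with 7 members inside the gene. The summed level was 131, 147 and 146 CPM in Th17n vehicle (animals 1, 2 and 3), 75.4, 76.2 and 67.0 in Th17n DFMO, 54.5, 70.3 and 77.9 in iTreg vehicle and 39.6, 34.7 and 31.5 in iTreg DFMO. Each DFMO library lay below each vehicle library of its culture, and the log2 changes were -0.96 ± 0.14 (adjusted p = 7.62e-06) in Th17n and -0.98 ± 0.16 (adjusted p = 3.54e-05) in iTreg. All 8 tested members had negative changes in both cultures, and 3 passed the threshold in Th17n and 2 in iTreg. The cluster was also higher in Th17n than in iTreg with vehicle, by 1.05 ± 0.14 (adjusted p = 1.37e-08).

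A cluster named for Sdf4 covers Tnfrsf18 and Tnfrsf4 (chr4:156007866-156032357, 7 members). These genes encode GITR and OX40, receptors that are abundant on regulatory and activated T cells. The cluster measured 409, 444 and 434.5 CPM in Th17n vehicle, 221, 195 and 226 in Th17n DFMO, 383, 477 and 496 in iTreg vehicle and 239.8, 308 and 261 in iTreg DFMO. The groups did not overlap within a culture. The changes were -1.01 ± 0.11 in Th17n (adjusted p = 6.3e-09) and -0.75 ± 0.10 in iTreg (adjusted p = 3.6e-06), and 4 and 5 of the 7 members passed the threshold, all lower. Further clusters of this family were Tnfrsf9, which encodes 4-1BB (6 members, -0.54 ± 0.12, adjusted p = 0.0017, and -0.64 ± 0.115, adjusted p = 2.26e-04), and Tnfrsf8, which encodes CD30 (11 members, -0.54 ± 0.11, adjusted p = 0.00136, and -0.42 ± 0.11, adjusted p = 0.0133). The Tnfrsf8 call in iTreg did not hold with thinned counts (adjusted p = 0.1017) or without DFMO library 1 (0.0923), DFMO library 3 (0.0597) or vehicle library 2 (0.0543). The Tnfrsf9 promoter printed above lies in a member that fell from 32.6 ± 3.55 to 18.2 ± 4.1 CPM in Th17n (-0.83 ± 0.23, adjusted p = 0.0166), a call lost without DFMO library 1 (0.118) or vehicle library 2 (0.0542). In iTreg the same member went from 38.15 ± 0.966 to 24.6 ± 2.90 CPM, short of the threshold (adjusted p = 0.0548).

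Ctla4 encodes an inhibitory receptor that competes with CD28 for its ligands, and its 13 members span chr1:60853304-60937348, next to the Cd28 cluster. The sum was 306, 347 and 305 CPM in Th17n vehicle, 256.5, 263 and 232 in Th17n DFMO, 246, 299.9 and 271 in iTreg vehicle and 148, 206 and 180.3 in iTreg DFMO, without overlap within a culture. It fell by 0.61 ± 0.11 on the log2 scale in iTreg (adjusted p = 2.51e-04). In Th17n the change was -0.35 ± 0.11 (adjusted p = 0.0334), and the call did not hold with counts thinned to the smallest library (adjusted p = 0.0607), with upper-quartile scaling (0.0505), or without any 1 of 6 libraries. These were DFMO libraries 1, 2 and 3 (0.0899, 0.0632 and 0.148), vehicle libraries 2 and 3 (0.1845 and 0.0650) and iTreg vehicle library 2 (0.0589). Most of the difference in Th17n came from a member at a gene end of Ctla4 (chr1:60916453-60917552), which measured 66.5, 58.0 and 68.7 CPM with vehicle and 24.85, 23.7 and 7.08 with DFMO (-1.70 ± 0.24, adjusted p = 4.58e-06).

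Sla encodes an adaptor that dampens signalling from the T cell receptor. Its cluster of 12 members measured 269, 299 and 294 CPM in Th17n vehicle, 184, 201 and 198 in Th17n DFMO, 171, 236 and 257 in iTreg vehicle and 96.9, 139.7 and 108 in iTreg DFMO. The DFMO libraries again lay below the vehicle libraries of their culture, with changes of -0.57 ± 0.12 (adjusted p = 0.00156) and -0.96 ± 0.13 (adjusted p = 1.32e-06), and 2 and 7 of the 12 members passed the threshold, all lower.

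Nfkb1 encodes a subunit of NF-kB, which is activated downstream of the T cell receptor and of the TNF receptor family. The first of its clusters (6 members) measured 303.5, 313 and 287 CPM in Th17n vehicle, 178, 192 and 178 in Th17n DFMO, 118, 143 and 136 in iTreg vehicle and 90.4, 105 and 98.2 in iTreg DFMO. The 4 groups did not overlap at any point. The changes were -0.72 ± 0.11 (adjusted p = 1.63e-05) in Th17n and -0.44 ± 0.12 (adjusted p = 0.0106) in iTreg, and the difference between the cultures with vehicle was 1.18 ± 0.11 (adjusted p = 2.0e-12). The iTreg call of this cluster did not hold without DFMO library 1 (adjusted p = 0.0567), DFMO library 3 (0.0572) or vehicle library 2 (0.0644).

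The Exoc2 and Irf4 cluster (24 members, chr13:30724834-30842177) measured 633, 728 and 751 CPM in Th17n vehicle, 573, 558.5 and 509 in Th17n DFMO, 517, 555 and 601.5 in iTreg vehicle and 406, 499.8 and 449.8 in iTreg DFMO. The DFMO libraries lay below the vehicle libraries in each culture by a small margin, with changes of -0.37 ± 0.092 (adjusted p = 0.00743) and -0.30 ± 0.092 (adjusted p = 0.0298). The Th17n call did not hold without DFMO library 3 (-0.32, adjusted p = 0.0614) or vehicle library 3 (-0.32, adjusted p = 0.0691). The iTreg call did not hold with thinned counts (-0.31, adjusted p = 0.0522), without DFMO library 1 (-0.23, adjusted p = 0.170) or 3 (-0.30, adjusted p = 0.112), or without vehicle library 2 (-0.31, adjusted p = 0.0575) or 3 (-0.25, adjusted p = 0.152). Of 23 tested members 3 fell and 1 rose in Th17n, and 4 fell in iTreg.

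**Figure D4:**
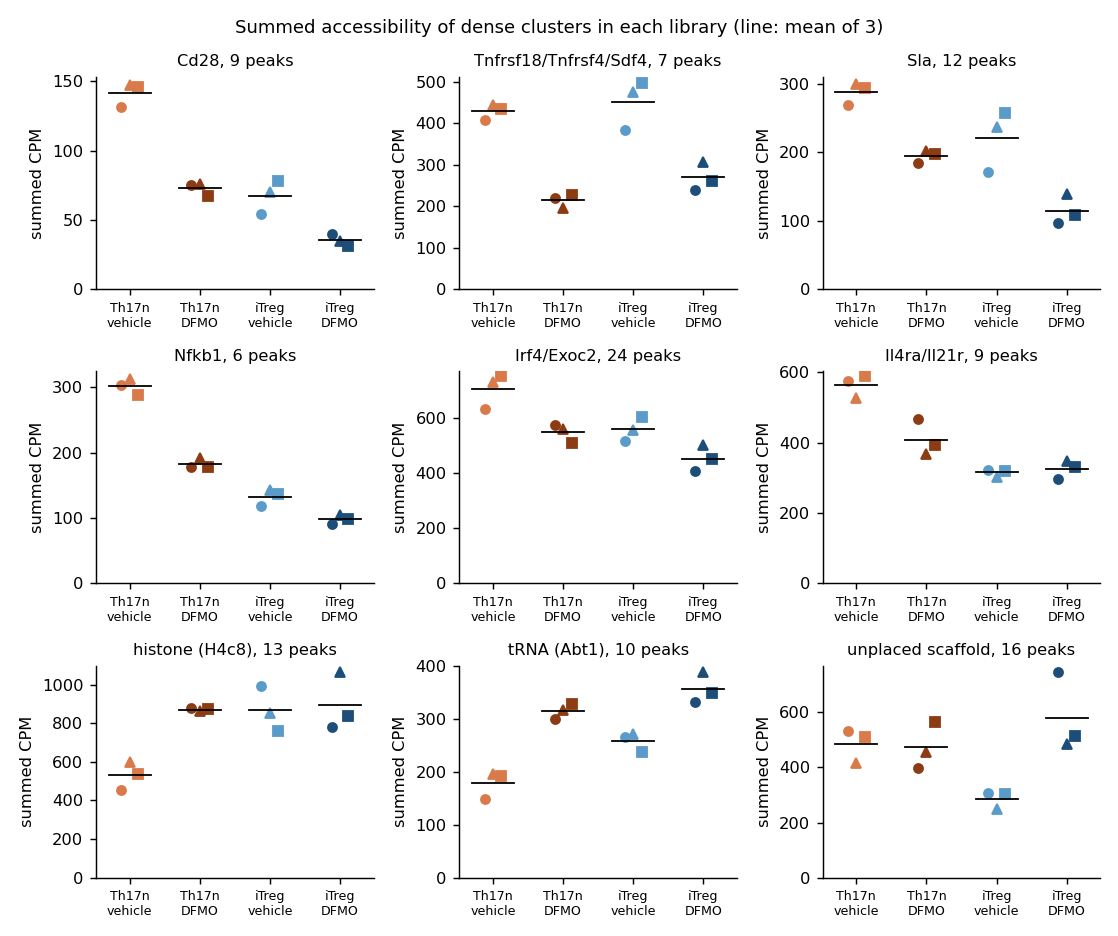
Summed level of 9 clusters (vertical axis, CPM, starting at 0) in each library by group, with circles, triangles and squares for animals 1, 2 and 3 and a line at the mean of 3. In the panels of Cd28, Tnfrsf18/Tnfrsf4/Sdf4, Sla, Nfkb1 and Irf4/Exoc2 the DFMO libraries lie below the vehicle libraries of their culture, and in the histone and tRNA panels the Th17n DFMO libraries lie above the Th17n vehicle libraries.

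In all, 28 clusters fell in both cultures, which is 39.4% of those that fell in Th17n and 35.9% of those that fell in iTreg, and 2 rose in both. For single members the numbers were 61 that fell in both (30.2% and 23.55%), and for the other narrow peaks 319 (19.6% and 18.7%). Such shares are higher where more peaks fall. Of all tested members 8.47% fell in Th17n and 10.9% in iTreg, against 4.06% and 4.27% of the other narrow peaks. The shares therefore do not show that members had more calls in common than other peaks, for their number of calls. Beside those above, the 28 included Wipf1, the gene of an actin regulator (-0.64 ± 0.16, adjusted p = 0.0082, and -1.02 ± 0.16, adjusted p = 3.44e-05), and Dnajb12 with Ddit4, an inhibitor of mTOR signalling (13 members, -0.59 ± 0.099, adjusted p = 7.6e-05, and -0.32 ± 0.098, adjusted p = 0.029). The Wipf1 call in Th17n did not hold without DFMO library 1 (adjusted p = 0.0562). The Dnajb12 call in iTreg did not hold with thinned counts (0.0648) or without DFMO library 1 (0.0916), DFMO library 3 (0.160), vehicle library 2 (0.0578) or vehicle library 3 (0.0651). The cluster at Glb1 and the chemokine receptor gene Ccr4 had changes of -0.54 ± 0.12 (adjusted p = 0.00209) and -0.52 ± 0.12 (adjusted p = 0.00458). Its iTreg call did not hold with thinned counts (adjusted p = 0.0576) or without DFMO library 3 (-0.435, adjusted p = 0.0706).

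Other clusters passed the threshold in 1 culture. In Th17n these included Gna13 (17 members, -0.45 ± 0.098, adjusted p = 0.00202, and -0.16 in iTreg, adjusted p = 0.341), which encodes a G protein subunit, and Tnfrsf1b, which encodes a TNF receptor (16 members, -0.42 ± 0.10, adjusted p = 0.00813, and 0.07 in iTreg, adjusted p = 0.749). The second cluster at Bach2, which encodes a repressor that holds back effector differentiation, changed by -0.82 ± 0.16 in Th17n (adjusted p = 4.12e-04) and by -0.43 ± 0.16 in iTreg, where it missed the threshold (adjusted p = 0.0831). In iTreg Tet3, which encodes an enzyme that oxidises methylated cytosine, fell by 0.68 ± 0.13 (adjusted p = 4.38e-04, and adjusted p = 0.0955 in Th17n). The Il10 cluster changed by -0.57 ± 0.14 in iTreg (adjusted p = 0.00876), a call lost with thinned counts (adjusted p = 0.0787), without iTreg DFMO library 3 (adjusted p = 0.0910) and without iTreg vehicle library 3 (adjusted p = 0.0545). The test of the difference between the cultures passed for none of Gna13, Tnfrsf1b, Bach2, Tet3 and Il10 (adjusted p = 0.337, 0.0829, 0.457, 0.394 and 0.798).

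Several of the largest clusters at T cell genes did not pass the threshold for DFMO in either culture. The Ets1 cluster (18 members) measured 397, 530.1 and 444 CPM in Th17n vehicle, 466, 484 and 409 in Th17n DFMO, 442, 464 and 446 in iTreg vehicle and 347, 455 and 442.5 in iTreg DFMO. The groups overlapped, with changes of -0.02 ± 0.10 and -0.12 ± 0.10 (adjusted p = 0.9395 and 0.546). Tcf7 (18 members) had changes of 0.07 ± 0.11 and -0.12 ± 0.11 (adjusted p = 0.782 and 0.551), and Lef1 (17 members) of -0.30 ± 0.10 and -0.04 ± 0.099 (adjusted p = 0.0527 and 0.854). Il2ra encodes the alpha chain of the IL-2 receptor, CD25, and its cluster of 15 members changed by -0.02 ± 0.096 and -0.09 ± 0.096 (adjusted p = 0.931 and 0.6315). Its members moved both ways, with 4 higher and 1 lower in Th17n and 1 higher and 3 lower in iTreg, over a range of log2 changes from -0.98 to 1.75 in Th17n.

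Members of a cluster that passed the threshold for DFMO could go the same way or both ways. Of the 60 clusters with at least 2 such members in Th17n, 38 had only lower ones, 10 only higher ones and 12 both. In iTreg 46 of 67 had only lower ones, 4 only higher ones and 17 both. Of all members called, 67.8% in Th17n and 79.9% in iTreg were lower. Over all tested members, called or not, 57.0% of 1783 neighbouring pairs within 25 kb had the same sign in Th17n and 60.9% in iTreg. Outside the clusters 54.0% and 54.8% did, but 11053 of those 24622 pairs lay 10 to 25 kb apart, against 173 member pairs. Within 2 kb the shares were 57.1% and 56.2% in Th17n, and 64.4% and 58.9% in iTreg. Correlations of the log2 changes there were 0.24 and 0.22, and 0.25 and 0.24. At 10 to 25 kb they were 0.22 and 0.12, and 0.17 and 0.097. More members than other narrow peaks had negative changes (66.2% and 49.9% in iTreg), which by itself adds same signs. The part of this was not tested. Between the cultures with vehicle, 147 of 259 clusters had both, 64 only higher and 48 only lower members in Th17n.

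**Figure D5:**
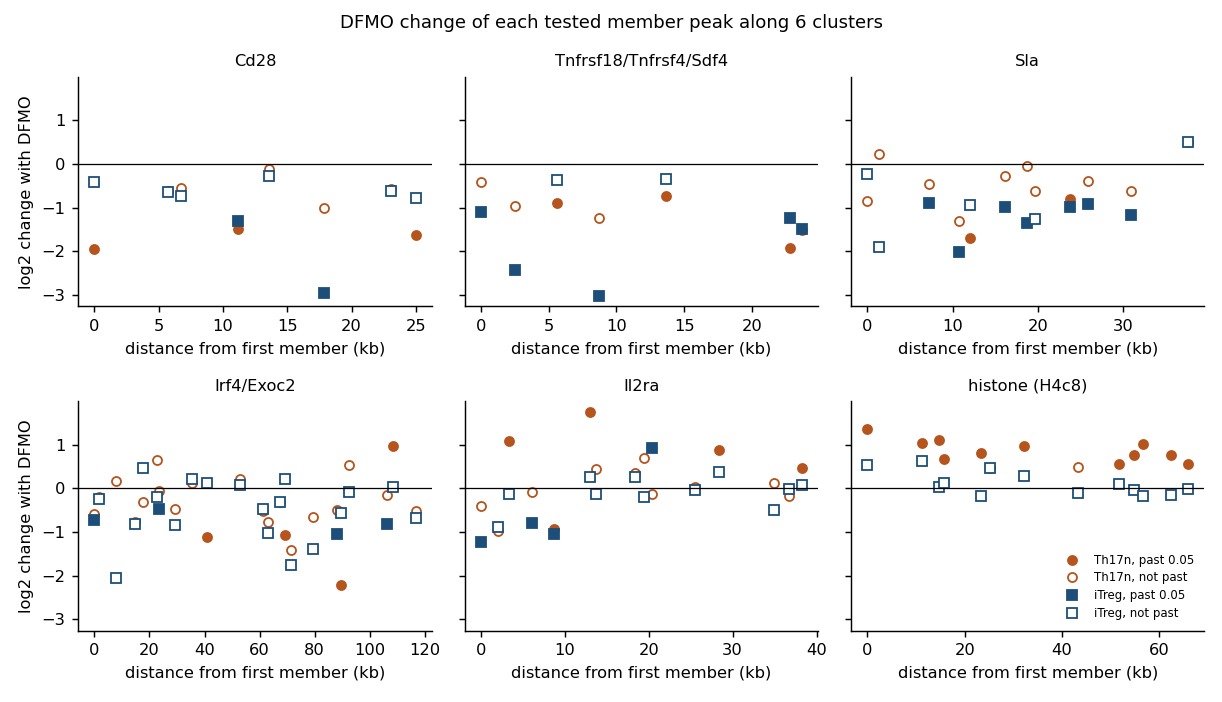
Log2 change with DFMO of each tested member (vertical axis) by its distance from the first member of the cluster (horizontal axis, kb) in 6 clusters, with circles for Th17n, squares for iTreg and filled symbols past adjusted p 0.05. The members of Cd28 and Tnfrsf18/Tnfrsf4/Sdf4 all lie below 0, those of Il2ra lie on both sides, and those of the histone cluster all lie above 0 in Th17n.

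Of the 15 clusters that rose in Th17n 7 lay at tRNA, histone or snRNA genes of chromosomes 11 and 13. Histone genes are transcribed during DNA replication, and tRNA genes by RNA polymerase III, and both exist in near-identical copies. How reads that fit several copies were counted is not given in the sources used here, so values of single copies are uncertain. The cluster named for H4c8 (13 members, chr13:23519066-23586140) holds 15 histone genes and 5 tRNA genes. It measured 454, 599.5 and 535 CPM in Th17n vehicle, 878, 863 and 872 in Th17n DFMO, 994, 853 and 759 in iTreg vehicle and 779.7, 1068 and 835 in iTreg DFMO. The Th17n vehicle libraries were the lowest 3 of the 12, and all others overlapped. The change was 0.71 ± 0.099 in Th17n (adjusted p = 3.75e-06) and 0.04 ± 0.098 in iTreg (adjusted p = 0.841), and 11 of 13 members rose in Th17n and 0 in iTreg. The members that contain the H3c8 and H2bc7 promoters printed above rose from 70.8 ± 6.57 to 114 ± 10.1 CPM (0.67 ± 0.13, adjusted p = 6.0e-04) and from 54.8 ± 9.58 to 97.15 ± 4.37 CPM (0.77 ± 0.14, adjusted p = 2.58e-04).

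The neighbouring cluster named for Abt1 (10 members, chr13:23412214-23453854) holds 16 tRNA genes. It measured 149, 196.5 and 192 CPM in Th17n vehicle, 300.5, 317 and 328 in Th17n DFMO, 266, 271 and 238 in iTreg vehicle and 332.5, 389 and 349.8 in iTreg DFMO. Here the DFMO libraries lay above the vehicle libraries in both cultures, with changes of 0.79 ± 0.11 (adjusted p = 2.18e-06) and 0.47 ± 0.10 (adjusted p = 0.00271). A member at tRNA genes (chr13:23426864-23427151) went from 3.74, 5.14 and 5.11 CPM to 30.0, 22.0 and 36.0 in Th17n (2.55 ± 0.33, adjusted p = 8.79e-07).

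Over all clusters, 23 members in 6 clusters overlapped a tRNA gene, and 16 of these rose and 0 fell in Th17n (4 and 0 in iTreg). Of 104 tested narrow peaks at tRNA genes outside the clusters 62 (59.6%) rose in Th17n, so the rise was not limited to clusters. Of the 16 members at histone genes 14 (87.5%) rose in Th17n and 0 in iTreg. Outside the clusters 4 of 16 narrow peaks at histone genes (25%) passed as higher in Th17n. The median log2 changes were close, with 0.72 for the members and 0.65 for those peaks. Of all 42 peaks at histone genes, wide ones included, 26 (61.9%) rose in Th17n, so the rise was not limited to clusters. Of the 2 members at snRNA genes 1 rose in each culture, and of 28 narrow peaks at such genes outside the clusters 24 rose in Th17n and 7 in iTreg. Among the 2343 tested members at none of these genes 65 (2.77%) rose and 202 fell in Th17n, where 4.19% of all peaks at none of them rose, and 60 rose and 259 fell in iTreg. Further clusters of this kind that rose in Th17n were Prss16 (0.63 ± 0.11, adjusted p = 2.22e-04), H1f2 (0.58 ± 0.12, adjusted p = 0.00125), Trim41 (0.43 ± 0.10, adjusted p = 0.00511) and Hes7 (0.29 ± 0.096, adjusted p = 0.0448). The Hes7 call did not hold without Th17n DFMO library 1 (adjusted p = 0.141) or 2 (0.170), or without Th17n vehicle library 1 (0.227) or 3 (0.109). Rdm1, a single member at an snRNA gene, rose in both (1.01 ± 0.17, adjusted p = 7.46e-05, and 0.59 ± 0.16, adjusted p = 0.0154), and its iTreg call did not hold with thinned counts (0.184) or without DFMO library 3 (0.121), vehicle library 2 (0.0732) or vehicle library 3 (0.114).

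In iTreg the cluster with the most members that rose was the only one on an unplaced scaffold, a piece of the assembly not assigned a place on a chromosome. Its 16 members summed to 532, 415 and 511 CPM in Th17n vehicle, 399, 455 and 565 in Th17n DFMO, 306, 249.8 and 303 in iTreg vehicle and 744, 483 and 512 in iTreg DFMO. The iTreg vehicle libraries were the lowest 3 of the 12. The change was 1.02 ± 0.12 in iTreg (adjusted p = 1.41e-07), with 12 of 16 members higher, and -0.04 ± 0.12 in Th17n (adjusted p = 0.902). Without this scaffold 53 members (2.24%) rose and 259 fell in iTreg. Smaller clusters that rose in iTreg lay at Aqp3, which encodes a channel for water and glycerol (1.71 ± 0.24, adjusted p = 5.27e-06), at Lefty1 (1.00 ± 0.24, adjusted p = 0.00543) and on chromosome X at the non-coding RNA gene Firre. The change at Firre was 0.73 ± 0.16 (adjusted p = 0.0025), and its call did not hold without iTreg DFMO library 3 (0.56, adjusted p = 0.0832).

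The difference of the DFMO effect between the cultures (Th17n minus iTreg) was tested by an interaction term. It passed for 25 members above 0 (1.05%) and 14 below (0.587%), where 0.835% and 0.478% of all tested peaks passed, and for 4 clusters above and 3 below of 507 (0.789% and 0.592%, where 0.631% and 0.535% of the entries passed). The number above 0 moved by over 1.5 times on leaving out any 1 of the 12 libraries, between 0.211% of members without Th17n vehicle library 3 and 3.15% without iTreg DFMO library 2. The share of all tested peaks moved too, to 0.249% and 2.07% in the same fits. The number below 0 was 0.337% without Th17n vehicle library 3, 0.982% without iTreg DFMO library 2 and 0.3775% without iTreg DFMO library 3. Of all tested peaks 0.193%, 0.931% and 0.2675% passed below 0 in these fits. The share of clusters was between 0.587% and 2.94% above 0 and between 0.196% and 1.17% below. These cluster shares were not set beside those of all entries in the same fits.

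A cluster near Klf6, which encodes a zinc finger factor, had 8 members outside the gene. It measured 95.0, 93.9 and 97.9 CPM in Th17n vehicle, 133, 128 and 97.02 in Th17n DFMO, 71.3, 82.0 and 77.5 in iTreg vehicle and 35.4, 59.6 and 46.1 in iTreg DFMO. The groups did not overlap in iTreg and did in Th17n. The change was -0.71 ± 0.15 in iTreg (adjusted p = 0.00214) and 0.33 ± 0.14 in Th17n (adjusted p = 0.143), and the difference was 1.04 ± 0.21 (adjusted p = 0.00559). A cluster named for Gm52008 on chromosome 12 (6 members) measured 174, 226 and 233 CPM in Th17n vehicle, 213, 198 and 215 in Th17n DFMO, 224, 186 and 203 in iTreg vehicle and 109.9, 117 and 121 in iTreg DFMO. Its iTreg DFMO libraries were the lowest 3 of the 12, with a change of -0.81 ± 0.12 in iTreg (adjusted p = 7.04e-06), of -0.04 ± 0.11 in Th17n (adjusted p = 0.897) and a difference of 0.77 ± 0.16 (adjusted p = 0.0075).

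Il4ra and Il21r encode receptors for IL-4 and IL-21, and share a cluster of 9 members on chromosome 7. The sum was 575, 527 and 588 CPM in Th17n vehicle, 466, 366 and 393 in Th17n DFMO, 323, 302 and 320.5 in iTreg vehicle and 296.5, 348 and 332 in iTreg DFMO. It fell in Th17n (-0.46 ± 0.097, adjusted p = 0.00143), and the iTreg libraries overlapped (0.05 ± 0.098, adjusted p = 0.824). A member at a gene end of Il4ra (chr7:125577589-125578850) measured 111, 103 and 131 CPM in Th17n vehicle, 60.0, 40.6 and 41.8 in Th17n DFMO, 22.6, 19.6 and 22.7 in iTreg vehicle and 28.7, 27.0 and 21.7 in iTreg DFMO. Its change differed between the cultures by -1.49 ± 0.26 (adjusted p = 0.00112, and 0.147 with thinned counts). The member that contains the Il21r promoter printed above fell in Th17n from 52.8 ± 3.83 to 30.9 ± 7.37 CPM (-0.72 ± 0.19, adjusted p = 0.0117, but 0.187 with thinned counts and 0.0676 without Th17n DFMO library 3), with 54.95 ± 11.6 and 49.3 ± 8.65 CPM in iTreg (adjusted p = 0.634). The Ier3 promoter, of a gene induced early in activation, lies in a member that fell in both, from 43.6 ± 8.56 to 21.9 ± 3.61 CPM (-0.92 ± 0.24, adjusted p = 0.00917) and from 30.15 ± 4.78 to 15.75 ± 6.06 CPM (-0.91 ± 0.25, adjusted p = 0.014). Its iTreg call did not hold with thinned counts (adjusted p = 0.0872) or without DFMO library 1 (0.108) or vehicle library 3 (0.1204), and the sum of its cluster passed in neither culture (adjusted p = 0.521 and 0.987).

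Between the cultures with vehicle, members of all positions together differed about as often as all peaks did. Away from gene ends 26.1% of members were higher in Th17n and 19.2% higher in iTreg, against 33.8% and 13.9% of the other narrow peaks. At gene ends the shares were 5.03% and 30.9% of members, against 4.03% and 30.5%. Of the tested members 539 (22.6%) were higher in Th17n and 505 (21.2%) higher in iTreg, where 25.2% and 19.3% of all tested peaks were. With DFMO 517 members (21.7%) were higher in Th17n and 313 (13.1%) higher in iTreg, where 22.6% and 14.7% of all peaks were. Of the clusters 127 (25.05%) were higher in Th17n and 118 (23.3%) higher in iTreg with vehicle, where 26.1% and 16.6% of the entries were. With DFMO the numbers were 120 (23.7%) and 78 (15.4%), where 22.6% and 14.7% of the entries were. These comparisons share libraries with the DFMO comparisons above.

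Clusters at cytokine and receptor genes were among those that differed between the cultures. Rora encodes a nuclear receptor of the Th17 programme, and its 2 members summed to 41.9, 62.05 and 53.9 CPM in Th17n vehicle and to 7.34, 3.52 and 5.62 in iTreg vehicle, which do not overlap (3.38 ± 0.30, adjusted p = 2.95e-13). The cluster between Il2 and Il21, genes of T cell cytokines, measured 115.5, 138 and 133 CPM in Th17n vehicle and 41.4, 41.3 and 58.0 in iTreg vehicle (1.45 ± 0.15, adjusted p = 1.77e-11). Its DFMO changes were -0.33 ± 0.14 and -0.24 ± 0.16 (adjusted p = 0.148 and 0.413). Trat1, the gene of an adaptor of the T cell receptor, was higher in Th17n by 1.95 ± 0.19 (adjusted p = 7.57e-12). Higher in iTreg were Grasp with Nr4a1, a nuclear receptor gene induced by T cell receptor signals (10 members, -0.72 ± 0.11, adjusted p = 2.55e-07, 8 of 10 members), and the class II MHC cluster of H2-DMb1 (-0.56 ± 0.090, adjusted p = 1.24e-06). Of 47 clusters that span at least 3 gene models 26 were higher in iTreg and 1 in Th17n with vehicle, and 7 and 4 with DFMO. Peaks at gene ends as a whole leaned the same way with vehicle, where 32.5% of all tested ones were higher in iTreg and 3.84% higher in Th17n. With DFMO 24.9% of them were higher in iTreg and 3.88% higher in Th17n.

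Of 217 genes in 13 lists, 66 were nearest to a member. Of 22 Th17 genes 8 had members (Batf, Il10, Il21, Il6ra, Il6st, Irf4, Rora and Stat3), and of their 37 tested members 5 fell and 0 rose in Th17n, and 4 fell and 0 rose in iTreg. Of 22 Treg genes 9 had members (Ctla4, Icos, Il2ra, Izumo1r, Lag3, Nrp1, Tnfrsf18, Tnfrsf4 and Tnfrsf9), and of 53 tested members 6 fell and 4 rose in Th17n, and 12 fell and 1 rose in iTreg. Naive and memory genes had the most (12 of 16 genes, among them Bach2, Cd28, Ets1, Lef1 and Tcf7), and of 116 tested members 14 fell and 2 rose in Th17n, and 10 fell and 2 rose in iTreg. Over all tested members 8.47% fell and 4.03% rose in Th17n and 10.9% and 2.73% in iTreg, and over all peaks 4.29% and 4.5%, and 4.73% and 3.83%. The median log2 changes were -0.32 and -0.30 for the Th17 list, -0.14 and -0.50 for the Treg list and -0.22 and -0.23 for the naive list, where those of all tested members were -0.11 and -0.21 and those of all tested peaks 0.01 and -0.01. Of 27 activation, AP-1, NFAT and NF-kB genes 12 had members, with 4 lower and 2 higher of 53 in Th17n and 5 lower and 0 higher in iTreg. None of 16 genes of polyamine metabolism, the pathway DFMO acts on, was nearest to a member.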

How the data were processed

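Open chromatin was measured by ATAC-seq (assay for transposase-accessible chromatin) in 12 libraries. The authors deposited 1 table of raw counts per peak, with 1 column per library and 0 columns unused. Trimmomatic, FastQC, Bowtie2 and MACS2 were used on build mm10 per the submitters' processing notes. Their settings, how the peaks of different libraries were merged, the treatment of reads with several matches and whether peak starts count from 0 or 1 are details not given in the sources used here. Peaks are printed as the table gives them.

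Peaks were assigned to the nearest protein-coding gene of the RefSeq annotation of GRCm38.p6 within 100 kb, and called gene end within 1 kb of an end of the gene model. The counts of all peaks were fitted with edgeR 4.0.16 (R 4.3.3, limma 3.58.1): filterByExpr, TMM factors, 1 mean per group over the 12 libraries, and the quasi-likelihood test with Benjamini-Hochberg adjustment at 0.05 over all tested peaks. Cluster sums were tested the same way in a table in which the members of each cluster were replaced by their sum. CPM are counts scaled to library size with TMM factors, as edgeR gives them, and errors of log2 changes are SE. The scripts were tested on simulated data. DESeq2 1.42.0, other scalings, filters and thresholds, counts thinned to the smallest library and leaving out each library were tried as alternatives.

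The labels tie libraries of the same number to the same animal. The 18 same-animal pairs had residual correlations of -0.0548 to 0.0747, and a fit with the animal as a block is given as an alternative.

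The members and gene lists were chosen with earlier results of these data known. Named were the 12 clusters with most members, the 5 higher and 5 lower clusters and members with the smallest adjusted p of each comparison, and up to 4 clusters per gene list. The sequences shown, the overlap with tRNA, snRNA and histone genes, the motifs NF-kB, CCAAT and TATAAA, and the results on Ier3, Tnfrsf8, Tnfrsf9, H1f2, Trim41, Hes7 and Rtn4rl1 were chosen after their values were seen. Some items are not reported here. No genome was used, so motifs were searched in RefSeq promoter windows in place of peak sequences.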

Additional observations from a re-analysis of the deposited data

Results flagged for a closer look

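By the interaction test of edgeR, the DFMO effect differed between Th17n and iTreg for 7 named clusters (Th17n minus iTreg, log2). The differences were -1.053 for the cluster on the unplaced scaffold, 0.6644 for the histone cluster H4c8, 0.7726 for Gm52008 and 1.041 for Klf6, each past adjusted p 0.05 in every alternative run. For Aqp3 the difference was -1.228 (adjusted p = 0.0357), and it missed the threshold in 10 alternatives (adjusted p up to 0.348). These were DESeq2, thinned counts and leaving out Th17n DFMO library 1 or 2, Th17n vehicle library 2 or 3, iTreg DFMO library 1 or 3 or iTreg vehicle library 2 or 3. For a cluster on chromosome 6 at the non-coding RNA gene Lncpint it was 0.9224 (adjusted p = 0.0352), and it missed the threshold without Th17n DFMO library 1 or 3, Th17n vehicle library 1, 2 or 3, iTreg DFMO library 1 or 3 or iTreg vehicle library 2 or 3 (adjusted p up to 0.1201). For Il4ra it was -0.5081 (adjusted p = 0.0485), and it missed the threshold with no filter, with thinned counts and without Th17n DFMO library 2 or 3, Th17n vehicle library 1 or 3, iTreg DFMO library 2 or 3 or any iTreg vehicle library (adjusted p up to 0.168).

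The same test passed for 9 members given here. The differences were -1.486 for the Il4ra member described above, -1.113 for a member on the unplaced scaffold, 1.225 for one at Gm52008, 1.992 for one at Dock10 and -2.822 for one at Gpr132. At Gpr132 the change was -1.43 in Th17n (adjusted p = 0.00681) and 1.39 in iTreg (adjusted p = 0.0114). The others were -3.239 for a member at Itpr1 (-2.13, adjusted p = 0.231 without iTreg DFMO library 3) and -2.484 for one at Bach2 (adjusted p = 0.125 with thinned counts and 0.0581 without Th17n vehicle library 3). A member at Gm8369 had 1.729 (adjusted p = 0.0770 with thinned counts) and one at Il6ra 1.371 (0.1375 with thinned counts).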

How the results depend on the processing

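Of 510 alternative values of the shares of members and clusters called and of the share of counts, 412 stayed within 1.5 times the value reported (for the share of counts, within its SD). Of 152 named changes past the threshold 114 passed in every alternative run, and none of the 152 changed sign. The share of clusters higher with DFMO in Th17n was 4.72% with at least 10 peaks a window, 4.51% with no limit on width, 5.81% with only the groups compared and 4.54% with upper-quartile factors. In iTreg it was 2.94% with at least 6 peaks, 2.83% when members were joined within 10 kb and 2.56% with upper-quartile factors. With counts thinned to the smallest library 1.24% of members rose and 5.27% fell in iTreg, against 1.99% and 2.43% of all peaks. With these counts 9.05% of clusters fell in iTreg. The interaction above 0 passed for 0.680% of members with no filter and 0.592% with thinned counts, against 0.592% and 0.381% of all peaks. Below 0 it passed for 0.323% of members with thinned counts, against 0.2255% of all peaks. For clusters it passed above 0 in 3.15% and below 0 in 1.575% with at least 10 peaks, in 1.94% and 0.936% with at least 6, in 1.96% and 0.392% with no width limit, in 1.26% and 0.2105% with thinned counts and in 3.85% and 0.385% with 20 kb windows. It passed above 0 in 1.27% without gene-end members, 1.97% with library totals and 1.97% with upper-quartile factors, and below 0 in 0.388% with no filter. With the replicate block (animals paired) it passed above 0 in 1.38% of clusters, and the block ended no named call except Bcl3 in Th17n (adjusted p = 0.0502) and moved no other share by over 1.5 times. The share of counts in members with at least 6 peaks, with at least 10, and without gene-end members was 17.7%, 1.365% and 4.37% in Th17n vehicle, 16.9%, 1.275% and 3.96% in Th17n DFMO, 17.5%, 1.33% and 4.05% in iTreg vehicle and 16.2%, 1.19% and 3.545% in iTreg DFMO.

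Leaving out 1 library at a time, 1.51% to 4.38% of members rose and 4.38% to 10.1% fell in Th17n, and 1.01% to 3.19% rose and 4.70% to 12.9% fell in iTreg. Of clusters 1.37% to 4.50% rose and 5.93% to 15.5% fell in Th17n, and 0.792% to 2.15% rose and 6.93% to 19.6% fell in iTreg. The interaction passed for 0.211% to 3.15% of members above 0 and 0.337% to 0.982% below, and for 0.587% to 2.94% of clusters above 0 and 0.196% to 1.17% below. In the fits at the ends of the member ranges 0.249% and 2.07% of all peaks passed above 0, and 0.193% and 0.931% below. The ranges of cluster shares were not set beside those of all entries. The share of counts was 5.58% to 5.73% and 5.29% to 5.33% in Th17n vehicle and DFMO, and 5.52% to 5.68% and 4.91% to 5.06% in iTreg.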
